A study of Mus musculus with 2 samples.

Results

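NMDA receptors are glutamate-gated ion channels built from 7 subunit genes in the mouse, and these genes were described here in the left cerebral cortex. The 7 genes, Grin1, Grin2a, Grin2b, Grin2c, Grin2d, Grin3a and Grin3b, were taken by symbol from the annotated transcript names and linked to the gene tables by gene identifier. They make up 7 of the 55536 annotated genes, and they carry 39 annotated transcripts. The cortex came from female B6CASTF1/J mice aged 25 days, a hybrid strain label with no transgene or treatment given. The study holds 1 group of 2 libraries, each made by total RNA sequencing from 300 ng of RNA, so no contrast between conditions exists. The labels give the tissues separate animal numbers but the same donor identifier, so the spread between libraries is that between animals only if the numbers are right.

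As background, a working NMDA receptor needs the glycine-binding GluN1 subunit, encoded by Grin1, together with GluN2 subunits that bind glutamate (Grin2a to Grin2d) or, less often, GluN3 subunits that bind glycine (Grin3a and Grin3b). A receptor of GluN1 and GluN2 subunits conducts well only with glutamate and a co-agonist bound and the membrane depolarised. The calcium it admits drives synaptic plasticity. In the maturing cortex GluN2A is known to join and partly replace GluN2B, and GluN1 exists in several splice forms that differ in gating and in trafficking.

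The splice forms of Grin1 differ by a short exon in the extracellular domain, N1, a cytoplasmic exon, C1, and a choice between a pair of last exons whose coding ends are called C2 and C2′. Their coding bases are shown because the isoform results turn on which of them a transcript holds. They were read from the GENCODE M21 transcripts, lie on the minus strand of mm10 and are written 5′ to 3′. Capitals in N1 and C1 mark the codons for lysine and arginine, and capitals in C2 and C2′ mark the last 4 codons before the stop.
N1, chr2:25311343-25311405: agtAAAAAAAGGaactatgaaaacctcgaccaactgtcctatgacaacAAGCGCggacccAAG
C1, chr2:25294438-25294548: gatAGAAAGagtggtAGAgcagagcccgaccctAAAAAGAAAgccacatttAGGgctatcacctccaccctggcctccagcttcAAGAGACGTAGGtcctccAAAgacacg
C2, chr2:25292371-25292484: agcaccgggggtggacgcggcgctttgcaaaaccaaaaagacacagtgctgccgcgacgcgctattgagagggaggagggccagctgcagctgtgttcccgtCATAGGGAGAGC
C2′, chr2:25292063-25292128: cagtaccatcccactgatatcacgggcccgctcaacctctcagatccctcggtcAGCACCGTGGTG

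N1 is 63 nt long and codes for 21 residues, of which 6 are lysine or arginine and 3 are acidic. C1 is 111 nt long and codes for 37 residues, 12 of them basic, with a longest unbroken run of 4 basic codons. C1 is known to hold an endoplasmic reticulum retention signal, and the C2′ end is known as a PDZ-binding end that scaffold proteins recognise. C2 codes for 38 residues and C2′ for 22, with 7 and 0 basic codons, respectively.

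The GluN2 subunits end in a PDZ-binding sequence as well, and their last 30 coding bases are shown because the 4 genes compared below share this feature. Capitals mark the last 4 codons, the positions refer to mm10, and each sequence is read from the minus strand.
Grin2a, chr16:9577830-9577859: aagaaaatgcctagtattGAATCTGATGTC
Grin2b, chr6:135732101-135732130: gagaaactttctagtattGAGTCTGATGTC
Grin2c, chr11:115249574-115249603: aggcggatctccagcctgGAATCAGAAGTG
Grin2d, chr7:45832783-45832812: gcgcacttctccagcctgGAGTCCGAGGTA

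The last 4 codons of Grin2a and Grin2b differed in bases but encoded 4 of 4 identical residues, and so did those of Grin2c and Grin2d, while each cross-comparison shared 3 of 4. Over the whole coding sequence, translated from the annotation and aligned end to end, Grin2a and Grin2b shared 57.6% of 1417 aligned residues and Grin2c and Grin2d shared 57.9% of 1174. Grin3a and Grin3b shared 56.3%. Grin1 shared between 29.4% and 33.5% with each of the other 6 genes.

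Expected counts, which are estimated read numbers that divide shared reads between features, summed to 31301126 in replicate 1 and 27182336 in replicate 2. Per-length levels are given as TPM, the length-corrected share of a transcript in its library, from the tables the authors made from aligned reads, and a second table made directly from the FASTQ reads is named where it is used. A common biological coefficient of variation of 9.12% was estimated by edgeR over 15683 genes between the libraries. Of markers of cortical cell types, 7 of 7 for excitatory neurons, 8 of 8 for inhibitory neurons and 6 of 6 for astrocytes were detected. Some markers of other regions were present as well. The 7 markers of striatal neurons were detected, with a summed level of 451 TPM in replicate 1 and 310 TPM in replicate 2. The 5 markers of choroid plexus, 2 of them detected in both libraries, summed to 101 and 7.08 TPM, of which Ttr held 96.0 and 4.79 TPM. The 6 of thalamus and hypothalamus, 3 of them detected in both libraries, summed to 63.3 and 12.7 TPM. Among the latter the hypothalamic peptide gene Pmch was at 35.6 and 0.35 TPM and Hcrt at 11.8 and 0 TPM. In bulk tissue, fewer cells of a type and less RNA per cell cannot be told apart.

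Detection was set at 1 TPM or more in each library, a level that 58.7% of 22015 nuclear protein-coding genes reached. Of the 7 subunit genes, 6 reached it, and Grin3b did not. The plot of levels by library shows the order, with 3 genes above 100 TPM and the others well below.

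**Figure D1:**
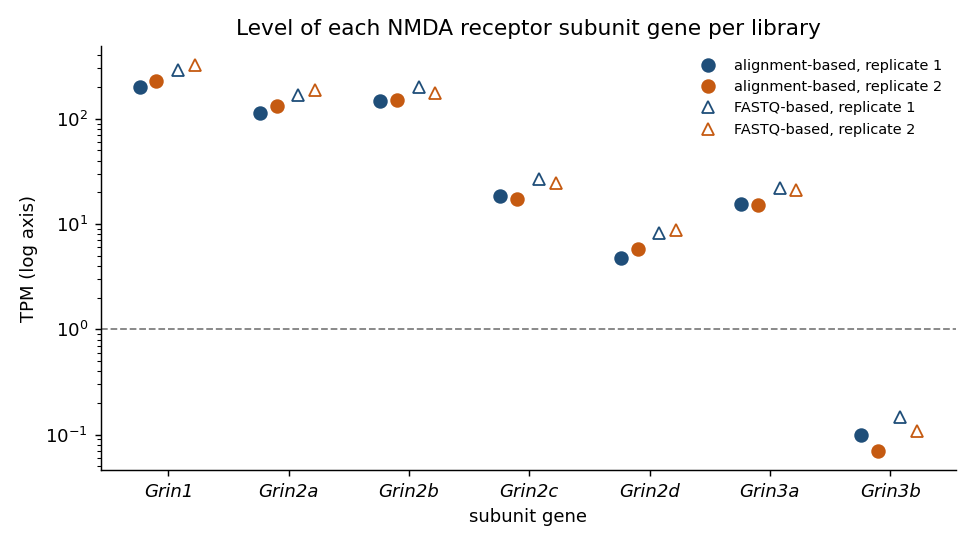
TPM of each subunit gene on a log axis, with filled circles for the alignment-based table and open triangles for the FASTQ-based table, replicate 1 in blue and replicate 2 in orange, and the detection threshold of 1 TPM dashed. Grin1, Grin2b and Grin2a lie above 100 TPM, Grin2c and Grin3a between 15 and 27 TPM, Grin2d between 4 and 9 TPM, and Grin3b at 0.15 TPM or below. Over detected genes FASTQ-based TPM had a median of 1.54 times the alignment-based TPM.

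Grin1 (ENSMUSG00000026959.13, chr2:25291181-25319187, minus strand of mm10), which encodes the subunit every NMDA receptor needs, had the highest per-length level of the family. Its TPM was 198.6 in replicate 1 and 225.8 in replicate 2, a mean of 212 ± 19.3 (SD, n = 2). This placed it at percentile 97.9 of the 12933 detected nuclear protein-coding genes. The 3 nuclear protein-coding genes nearest to it in log2(TPM + 1) over both libraries were Apc, Chd3 and Kif1b. The antisense gene Grin1os overlaps Grin1 and held 4 and 0 counts against 15843 and 14866 for Grin1.

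Grin2b (ENSMUSG00000030209.14, chr6:135713233-136173511, minus strand), the GluN2 subunit that predominates before birth and in early life, followed. Its TPM was 146.6 in replicate 1 and 150.1 in replicate 2, a mean of 148 ± 2.50 (SD, n = 2), at percentile 96.1. Synj1, Rbfox3 and Rps3a1 lay nearest to it in level. Grin2a (ENSMUSG00000059003.12, chr16:9567898-9995560, minus strand), whose GluN2A subunit gives faster receptor currents, had a TPM of 112.1 in replicate 1 and 132.9 in replicate 2. Its mean was 122 ± 14.7 (SD, n = 2), at percentile 94.7, and its nearest genes were Gm49601, Dst and Rsrp1.

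Grin2c (ENSMUSG00000020734.13, chr11:115249169-115267243, minus strand), known mainly from cerebellar granule cells and from some glia and other neurons, was close to the middle of detected genes. Its TPM was 18.3 and 17.3, a mean of 17.8 ± 0.742 (SD, n = 2), at percentile 53.5. Grin2d (ENSMUSG00000002771.12, chr7:45831883-45878378, minus strand), which in the forebrain is known from inhibitory interneurons, was the lowest of the detected members. Its TPM was 4.77 in replicate 1 and 5.77 in replicate 2, a mean of 5.27 ± 0.707 (SD, n = 2), at percentile 20.9. A pair of genes on the opposite strand overlap Grin2d, the coding gene Kdelr1 and the antisense gene Gm45441, which held 946 and 759 counts and 152 and 132 counts, respectively, against 499 and 509 for Grin2d. The overlap is that of whole gene spans, and whether their exons coincide was not checked. The sources used here do not give whether counting used strand, and without strand reads of shared exon bases cannot be told apart.

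Grin3a (ENSMUSG00000039579.15, chr4:49661611-49845744, minus strand), a subunit known for lowering the calcium permeability of the channel in young neurons, had a TPM of 15.4 and 15.2. Its mean was 15.3 ± 0.184 (SD, n = 2), at percentile 48.7. Grin3b (ENSMUSG00000035745.9, chr10:79970715-79977190, plus strand), known mainly from motor neurons, had 5 counts in replicate 1 and 2 in replicate 2, or 0.10 and 0.07 TPM. Tmem259, which overlaps it on the opposite strand, held 2214 and 2015 counts.

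The order Grin1, Grin2b, Grin2a, Grin2c, Grin3a, Grin2d, Grin3b was the same in both libraries. For each of the 6 neighbouring pairs the values of the 2 libraries did not overlap. The narrowest steps were Grin2c over Grin3a, by a log2 ratio of 0.22 ± 0.04 (SD, n = 2), and Grin2b over Grin2a, by 0.28 ± 0.15. In the FASTQ-based table Grin2a and Grin2b did overlap. Grin2a was at 167 and 189 TPM there and Grin2b at 199 and 176 TPM, so Grin2b was higher in replicate 1 and Grin2a in replicate 2. FASTQ-based TPM was generally the higher, with a median of 1.54 times the alignment-based TPM over detected genes. Grin2b was at 1.26 times, percentile 7.66 of those genes, and the other detected members were at 1.41 to 1.60 times.

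As shares of the summed TPM of the 7 genes, Grin1 held 40.7% ± 0.870 and Grin2a 23.4% ± 1.19 (SD, n = 2 each). Grin2b held 29.6% in replicate 1 and 27.4% in replicate 2. Grin2c held 3.43% ± 0.381, Grin3a 2.94% ± 0.240 and Grin2d 1.01% ± 0.0656. Grin1 was below the summed level of the 4 Grin2 genes, at 0.705 of it in replicate 1 and 0.738 in replicate 2. Restricted to full-length coding transcripts, those whose coding sequence reaches at least 90% of the longest of the gene, the ratio was 0.845 and 0.877. In counts without length correction it was 0.231 and 0.243, where long transcripts such as Grin2b-201, of 24060 nt, weigh more than the full-length ones of Grin1, of at most 4276 nt. Counts also moved Grin1 from first to last of the 3 main genes. Grin2b held 50.7%, Grin2a 25.7% and Grin1 18.7% of the summed CPM, and Grin3a, at 2.39%, passed Grin2c, at 1.85%.

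Transcript use was read from the deposited IsoPct, the percent of a gene's TPM that a transcript holds. For 6 of the 6 detected members the libraries shared 1 leading transcript, against 88.0% of 11706 detected nuclear protein-coding genes with more than 1 transcript. By share of expected counts it was 5 of 6, since Grin2c-202 led Grin2c-201 in replicate 2, with 50.7% against 49.3%. The tables, averaged over libraries, shared it for 6 of 6, against 75.4%. It held at least 50% in both libraries for 4 of 6, against 61.3%. With 6 genes these counts are read only beside that background.

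Grin1 has 14 annotated transcripts, 8 with full-length coding sequence and 6 with none. The full-length transcripts held 90.4% of its TPM in replicate 1 and 86.3% in replicate 2. These 8 encode the 8 combinations of N1, C1 and C2 or C2′, and their coding sequences are all distinct. In the usual naming the number gives the cytoplasmic end (1 for C1 with C2, 2 for C2 alone, 3 for C1 with C2′, 4 for C2′ alone), and the letter b marks forms with N1.

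N1 was held by 4 of the 8 full-length transcripts, which made up 20.4% of the full-length Grin1 TPM in replicate 1 and 19.0% in replicate 2, a mean of 19.7% ± 1.01 (SD, n = 2). C1 was held by transcripts with 66.3% and 68.0%, a mean of 67.1% ± 1.23. The C2 end made up 62.0% and 64.9%, a mean of 63.5% ± 2.06, and the C2′ end the remaining 36.5% ± 2.06. The FASTQ-based table gave 21.5% ± 0.718 for N1, 61.4% ± 3.80 for C1 and 60.1% ± 2.92 for C2. In both libraries and both tables most of the full-length Grin1 TPM thus lacked N1, most held C1 and most ended in C2. The form that joins all of these, GluN1-1a, held between 31.7% and 46.4% and so was not most of it.

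C1 and the C2 end went together. Among transcripts with C1, 77.9% ± 1.81 of the TPM ended in C2, and among those without C1, 34.2% ± 8.33 did (SD, n = 2). The FASTQ-based table gave 79.6% ± 0.741 and 29.0% ± 1.40. N1 and the C-terminal exons lie far apart in the transcript, and how they were joined was assigned by the quantifiers. The tables differed on it: N1 was in 17.9% ± 4.43 of C2 transcripts and in 22.4% ± 10.2 of C2′ transcripts by alignment, but in 30.0% ± 2.28 and 8.80% ± 0.0825 by the FASTQ-based table.

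GluN1-1a, encoded by Grin1-201, led with 46.4% of the full-length Grin1 TPM in replicate 1 and 40.8% in replicate 2, a mean of 43.6% ± 3.95 (SD, n = 2). GluN1-4a, encoded by Grin1-205, which lacks all 3 of N1, C1 and C2, followed with 24.2% and 19.2%, a mean of 21.7% ± 3.55. The FASTQ-based means were 34.2% ± 3.54 and 27.4% ± 3.24. These forms were first and second in both libraries and both tables, and their values did not overlap. GluN1-4b, encoded by Grin1-207, was listed at 0 in every library and table. The upper bounds that the authors deposited with its alignment-based TPM were 5.61 in replicate 1 and 9.80 in replicate 2, so its absence is not shown.

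The other 5 forms lay between 2.30% and 11.3% by alignment, and their order was not stable. GluN1-3b was at 11.2% and 5.32%, and GluN1-3a at 2.52% and 10.6%, so each was the higher in a different library. The FASTQ-based table put GluN1-1b next after the leading pair, at 14.7% and 14.8%. The bounds that the authors deposited with each TPM were wide for these forms, from 0.758 to 17.0 TPM for GluN1-3b in replicate 1 and from 0.00495 to 18.2 TPM in replicate 2. Some deposited values lie outside their own bounds, among the members' transcripts 5 of the 34 listed above 0 in replicate 1 and 2 of 34 in replicate 2. In replicate 1, GluN1-3b was at 20.2 TPM, GluN1-1a at 83.2 TPM with bounds of 57.3 and 81.9 TPM, and GluN1-3a at 4.53 TPM with bounds of 5.31 and 24.9 TPM. In both libraries Grin2a-206, Grin2b-201 and the gene value of Grin1 lay above their upper bounds. The plot of Grin1 forms shows the leading pair apart from the rest.

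**Figure D2:**
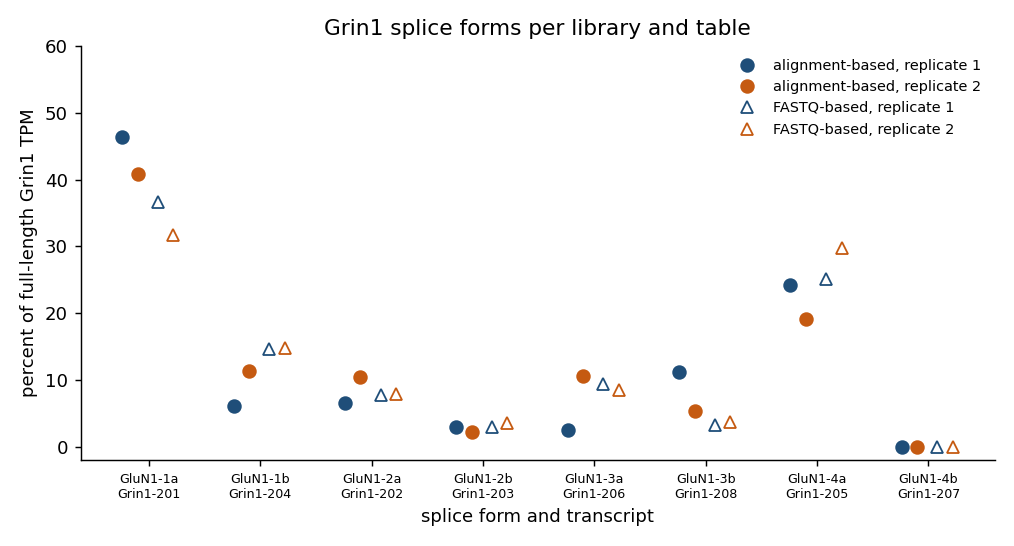
Percent of the full-length Grin1 TPM in each of the 8 splice forms, with filled circles for the alignment-based table and open triangles for the FASTQ-based table, replicate 1 in blue and replicate 2 in orange. GluN1-1a lies between 31.7% and 46.4%, GluN1-4a between 19.2% and 29.7%, GluN1-4b at 0, and the other 5 forms at 14.8% or below.

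Grin2a has 6 annotated transcripts, of which 3 encode the same full-length protein of 1464 residues and 3 have no coding sequence. Grin2a-206, with a 3′ untranslated region of 9929 nt, led with 54.1% of the gene's TPM in replicate 1 and 49.6% in replicate 2. Grin2a-202, whose 3′ untranslated region is 86 nt, held 24.6% and 12.5%. Grin2a-201, annotated with no 3′ untranslated region, was at 0% and 6.41%, and the FASTQ-based table listed it at 0 in both libraries. The long end made up 70.6% ± 2.59 of the full-length TPM by alignment and 65.7% ± 2.66 by the FASTQ-based table (SD, n = 2).

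The non-coding transcripts of Grin2a, a pair of retained introns and a processed transcript, together had 23.96 TPM in replicate 1 and 41.95 TPM in replicate 2. Grin2a-204 held 10.2% and 9.95% of the gene, Grin2a-203 5.71% and 9.75%, and Grin2a-205 5.42% and 11.9%. These 3 transcripts took 5.60% ± 0.880 of the gene's expected counts but 26.5% ± 7.22 of its TPM (SD, n = 2). TPM corrects for length, and Grin2a-205, Grin2a-203 and Grin2a-204, at 602, 1109 and 3906 nt, are shorter than the leading Grin2a-206, of 14634 nt.

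Grin2b has 7 annotated transcripts, and 2 of them encode the same full-length protein of 1482 residues. Grin2b-201, whose 3′ untranslated region of 18865 nt is the longest among the members' transcripts, held 54.5% and 56.2% of the gene's TPM. Grin2b-202, with one of 2272 nt, held 14.7% and 16.1%. The long end made up 78.3% ± 0.753 of the full-length TPM by alignment and 82.8% ± 1.93 by the FASTQ-based table (SD, n = 2).

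The 4 partial coding transcripts of Grin2b held 27.6% ± 1.34 of the gene's TPM on 2.08% ± 0.235 of its expected counts (SD, n = 2). Grin2b-206, of 601 nt, was at 8.90% and 14.2%, Grin2b-204, of 703 nt, at 8.92% and 2.79%, and Grin2b-205, of 2461 nt, at 9.25% and 7.98%. In the FASTQ-based table Grin2b-206 held 22.9% in replicate 1 and 10.8% in replicate 2, and Grin2b-204 had less than 1 estimated count in each library. Per-length values of such short transcripts rest on few counts, between 44 and 188 for Grin2b-204 and Grin2b-206 in each library.

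**Figure D3:**
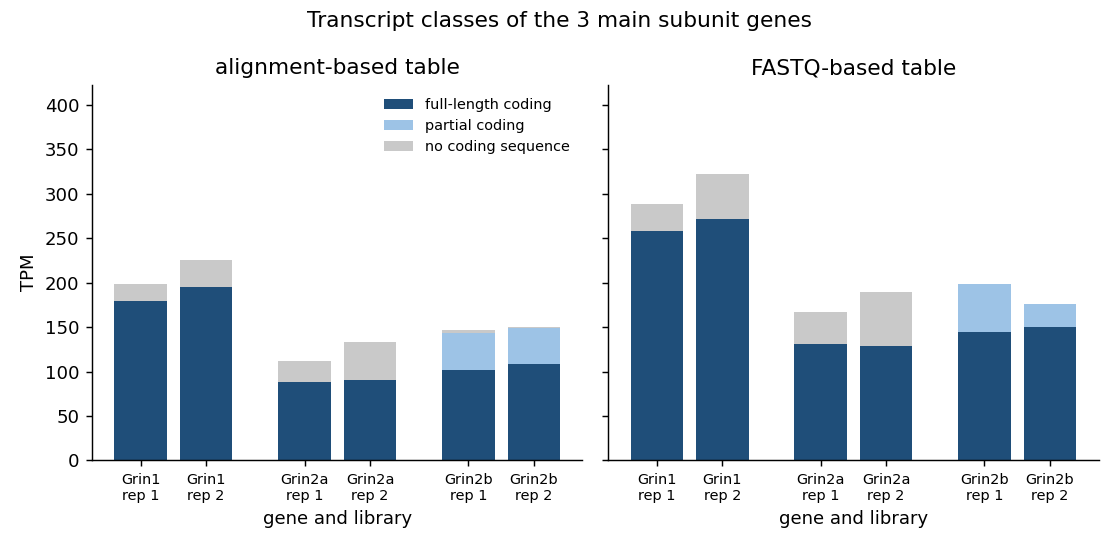
TPM of Grin1, Grin2a and Grin2b in each library, stacked by transcript class (full-length coding, partial coding, no coding sequence), for the alignment-based table on the left and the FASTQ-based table on the right. The full-length part of Grin2a is 88.1 and 90.9 TPM by alignment, while its non-coding part is 23.96 and 41.95 TPM.

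The smaller members used fewer forms. Grin2c was split between Grin2c-201, with 58.3% and 52.7%, and Grin2c-202, with 41.7% and 47.3%, which encode the same protein and differ before the coding sequence. In the FASTQ-based table they were at 50.2% and 49.8% in replicate 1. Grin2d-201 held 66.0% and 61.1% and Grin2d-203 28.3% and 33.9%, again with the same protein, and with 3′ untranslated regions of 897 and 527 nt. The partial transcript Grin2d-202 held 5.72% and 4.94% by alignment, on 5.17 and 4.53 expected counts. In the FASTQ-based table it held 18.8% and 11.8%, on 15.7 and 9.67 estimated counts.

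Grin3a has 4 annotated transcripts, of which 2 encode different full-length proteins. Grin3a-201, of 1115 codons, held 63.7% and 71.4% of the gene's TPM, and Grin3a-202, of 1135 codons, 17.6% and 12.8%. The FASTQ-based means were 69.1% ± 3.72 and 14.5% ± 3.54 (SD, n = 2). They differ by 60 coding bases present only in Grin3a-202, shown because they are the protein difference behind these shares. Capitals mark the whole codons for lysine and arginine, of which there are 4 among 19 whole codons.
Grin3a-202 insert, chr4:49665566-49665625, minus strand: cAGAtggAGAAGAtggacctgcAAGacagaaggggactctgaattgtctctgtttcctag

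Grin3a-203, a transcript with no coding sequence, held a further 17.1% and 14.6%. Grin3b was too low for transcript use to be read: Grin3b-201 led in replicate 1 with 3.68 expected counts, and Grin3b-203 in replicate 2 with 2.

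The ratio of Grin2a to Grin2b, the measure usually taken for the maturation of cortical receptors, was below 1 in both libraries by the gene TPM. It was 0.765 in replicate 1 and 0.885 in replicate 2, a log2 ratio of -0.28 ± 0.15 (SD, n = 2). Grin2a made up 43.3% and 47.0% of the pair, a mean of 45.1% ± 2.56. With 1 age in the study, no change of the ratio with age can be given.

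The ratio also depended on which transcripts were summed. Over full-length coding transcripts it was 0.869 and 0.838 by alignment, and 0.908 and 0.861 by the FASTQ-based table, with Grin2b the higher in both libraries and tables. The levels behind the first were 88.1 and 90.9 TPM for Grin2a and 101.4 and 108.5 TPM for Grin2b, which do not overlap. Over transcripts annotated as protein-coding, which adds the short partial ones of Grin2b, it was 0.615 and 0.613.

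The libraries differed in the gene TPM ratio by 0.21 on the log2 scale, with replicate 2 the higher, and by -0.05 over full-length transcripts. In the FASTQ-based gene TPM the ratio was 0.839 and 1.08. Its partial coding transcripts of Grin2b were at 54.0 TPM in replicate 1 and 26.2 TPM in replicate 2, and its non-coding transcripts of Grin2a at 35.3 and 60.3 TPM, while full-length Grin2a was at 131 and 129 TPM. The order of Grin2a and Grin2b in replicate 2 of that table therefore rests on transcripts without full-length coding sequence.

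In expected counts, Grin2a had 22260 and 20033 and Grin2b 44159 and 39180. The share of Grin2a in the pair was 33.5% in replicate 1, with an exact 95% binomial interval of 33.2% to 33.9%, and 33.8% in replicate 2, with 33.5% to 34.2%. These intervals, and the others on counts below, cover counting error only. The odds ratio of replicate 2 to replicate 1 was 1.01, with an interval of 0.991 to 1.04, so the count share did not differ between libraries beyond counting error.

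**Figure D4:**
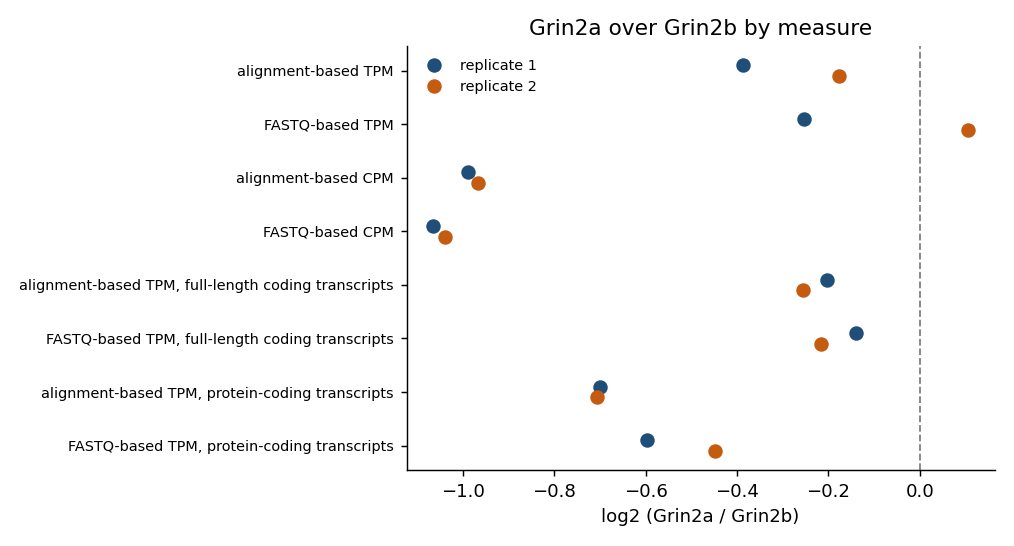
Log2 ratio of Grin2a to Grin2b under 8 measures, replicate 1 in blue and replicate 2 in orange, with 0 dashed. The points of 7 measures lie below 0 in both libraries, and the FASTQ-based gene TPM lies at -0.25 in replicate 1 and 0.10 in replicate 2.

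Between the libraries, CPM values (counts scaled to library size with TMM factors) of the subunit genes were close. Of the 6 members at a mean CPM of at least 5, 0 were 1.5-fold or more apart, against 1.22% of 11095 nuclear protein-coding genes. The exact 95% interval of the ratio left out 1 for 3 of 6, against 36.5%, so the members stood near the background by both measures. With 1 group, edgeR gave the spread and no test of genes.

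Grin1 was at 514 CPM in replicate 1 and 542 in replicate 2, a ratio of 1.05 with an interval of 1.03 to 1.08. Grin2a was at 723 and 730 CPM, a ratio of 1.01 (0.991 to 1.03), and Grin2b at 1434 and 1428 CPM, a ratio of 0.996 (0.983 to 1.01). Grin2c was at 54.98 and 49.25 CPM, a ratio of 0.896 (0.833 to 0.963). Of these 4, Grin1 and Grin2c lay outside counting error, in opposite directions. Grin2d was at 16.2 and 18.6 CPM, a ratio of 1.15 (1.01 to 1.30), and Grin3a at 69.6 and 65.4 CPM, a ratio of 0.941 (0.883 to 1.00). The FASTQ-based ratio of Grin2d was 1.13 (0.999 to 1.27), where the interval includes 1. No ratio exceeded 1.15-fold in either direction, and the log2 ratios of the 6 members had a median of 0.00 beside -0.04 for the 11095 genes.

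Some cell-type markers and the activity genes also differed between the libraries. The 7 excitatory neuron markers were higher in replicate 2 in 7 of 7, with a median log2 ratio of 0.20 and a summed 1723 and 1803 CPM. The 8 inhibitory neuron markers were higher in replicate 1 in 8 of 8, with a median of -0.17 and a summed 816 and 654 CPM. The 6 astrocyte markers were higher in replicate 1 in 4 of 6, with a median of -0.07, but their sum was higher in replicate 2, at 6169 and 6521 CPM. Larger differences were seen in myelinating oligodendrocyte markers, higher in replicate 2 in 6 of 6, with a median of 0.55 and 3 of 6 past 1.5-fold. Striatal neuron markers were higher in replicate 1 in 7 of 7, with a median of -0.68 and 5 of 7 past 1.5-fold. Of the thalamic and hypothalamic markers, the 3 at a mean CPM of at least 5 had a median log2 ratio of -0.38, with replicate 1 the higher in 3 of 3. Of the choroid plexus markers 1 reached that level, Ttr, with a log2 ratio of -4.41. Markers of oligodendrocyte precursors, of microglia, and of endothelial and mural cells had median log2 ratios of 0.04, -0.01 and 0.05. Of 6 cerebellar markers, 4 reached that level, with a median of -0.02 and 1 past 1.5-fold. Immediate early genes, which neuronal activity induces, had a median log2 ratio of -1.23, with replicate 1 above replicate 2 for 8 of 8, while the 6 members stayed within 0.20. The part of these markers in the members' values was not tested.

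The transcript classes of Grin1 and Grin2a did differ between libraries. Non-coding transcripts of Grin1 held 941 and 1245 expected counts, a CPM ratio of 1.49 with an interval of 1.36 to 1.62, while its full-length transcripts had a ratio of 1.03 (1.00 to 1.05). Those of Grin2a held 1108 and 1246 counts, a ratio of 1.26 (1.16 to 1.37), with 0.997 (0.978 to 1.02) for the full-length transcripts. The FASTQ-based ratios of the non-coding transcripts were 1.51 and 1.35. Partial coding transcripts of Grin2b went the other way, with a ratio of 0.848 (0.770 to 0.934), and 0.772 (0.661 to 0.8996) in the FASTQ-based table. Non-coding transcripts of Grin3a had a ratio of 0.785 (0.636 to 0.968) by alignment, but 0.9496 (0.769 to 1.17) in the FASTQ-based table, where the interval includes 1.

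A difference of this kind was not limited to these genes. Among 9825 detected nuclear protein-coding genes with any level in transcripts not annotated as protein-coding, that share of TPM was higher in replicate 2 for 62.9%, with a median difference of 1.26 percentage points. Grin1 differed by 4.05 points, at percentile 70.4 of those genes, and Grin2a by 10.2 points, at percentile 89.7. Among the 3522 genes with at least 100 such counts in both libraries, the median CPM ratio was 1.10.

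**Figure D5:**
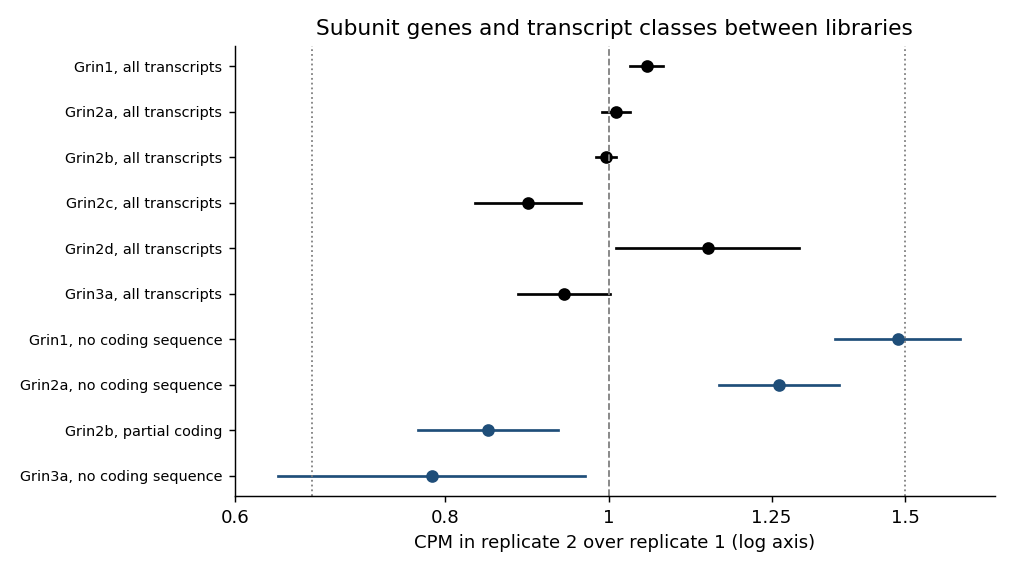
CPM in replicate 2 over replicate 1 on a log axis, with exact 95% counting intervals as bars, for the 6 detected members (black) and for their partial or non-coding transcript classes with at least 100 counts (blue), with 1 dashed and 1.5-fold dotted. The members lie between 0.896 and 1.15, and the non-coding transcripts of Grin1 at 1.49.

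The genes that work with the receptor were taken from 8 lists of 95 genes in all. Of these, 93 (97.9%) were detected, all but Dao and Slc6a5, against 58.7% of nuclear protein-coding genes. Of 11095 nuclear protein-coding genes at a mean CPM of at least 5, 1.22% were 1.5-fold or more apart between the libraries. Of the 91 partner genes at that level, 1 was, or 1.10%. That gene was Npas4, an activity-induced transcription factor that is also among the immediate early genes above, with 25.2 CPM in replicate 1 and 8.46 in replicate 2. It was 2.98-fold higher in replicate 1, with an interval of 2.57 to 3.47. Detected nuclear protein-coding genes had a median of 16.02 TPM, beside which the medians of the lists are given here. The list medians cover every gene of a list, so that of the co-agonist list includes the undetected Dao and Slc6a5.

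Among 11 genes of the other ionotropic glutamate receptors, the median was 35.7 TPM. Gria2, the AMPA receptor subunit that blocks calcium entry, was at 232 ± 10.95 TPM and the kainate receptor subunit Grik5 at 113 ± 10.2 TPM (SD, n = 2). Among 14 scaffolds and anchors the median was 81.3 TPM, with Dlg4, which encodes PSD-95 and binds the GluN2 ends shown above, at 422 ± 8.28 TPM and Dlgap1 at 196 ± 17.6 TPM. Among 19 kinases and phosphatases it was 76.5 TPM, with Camk2a, the kinase that docks on GluN2B, at 1120.1 ± 24.7 TPM and the protein kinase C gene Prkcb at 485 ± 23.5 TPM.

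Among 8 downstream signalling genes the median was 88.4 TPM, with Kalrn, a guanine nucleotide exchange factor of dendritic spines, at 260 ± 32.7 TPM and Nsmf, a synapse-to-nucleus messenger, at 227 ± 30.6 TPM. Among 7 trafficking and membrane proteins it was 38.7 TPM, with Grina at 227 ± 3.34 TPM and Apba1, an adaptor of vesicle transport, at 54.2 ± 5.12 TPM. Grina is named for a glutamate receptor but encodes a TMBIM-family membrane protein and no channel subunit. Among 11 splicing regulators it was 96.9 TPM, with Celf2 at 227 ± 17.8 TPM and Rbfox1 at 151 ± 2.38 TPM (SD, n = 2).

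The lists closest to the middle of detected genes were those of the co-agonists and of transcription. Among 15 genes of co-agonist synthesis and transport the median was 14.7 TPM, with Psat1, of serine synthesis, at 51.8 ± 1.94 TPM and Srr, which makes D-serine, at 41.0 ± 0.205 TPM. Among 10 transcription and chromatin regulators it was 17.7 TPM, with the DNA methyltransferase gene Dnmt3a at 71.6 ± 10.2 TPM and Nfib at 41.7 ± 7.40 TPM (SD, n = 2). Dao, which degrades D-serine, held 2 and 1 counts, and the glycine transporter gene Slc6a5 held 5 and 3.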

How the data were processed

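Total RNA-seq of 2 libraries was used, and the alleles of the hybrid were counted together. Quantification by the authors was on mm10 with GENCODE M21, from aligned reads and, separately, from the FASTQ reads, per the notes deposited with the files. Names and versions of the tools and the use of strand are not given in the sources. In the deposited alignment-based tables each feature has an expected count, a TPM with interval bounds (score columns, on the TPM scale, level not given) and IsoPct, the percent of a gene in each transcript, per the file headers. Each transcript of the deposited FASTQ-based table has a TPM and an estimated count, which were summed per gene here. Entries that carry only a number, 6.39e-06% and 1.81e-05% of the expected counts, were left out.

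Expected counts were rounded and scaled with TMM (edgeR 4.0.16, R 4.3.3), and DESeq2 1.42.0 size factors were an alternative. Ratios carry exact binomial intervals (scipy 1.17.1); sums and figures used pandas 2.3.3 and matplotlib 3.10.9, and alignments Biopython 1.88. The scaling was tested on simulated data. Counts of the libraries differed beyond sampling noise (chi-square per degree of freedom 7.84 over 20417 genes). Named transcripts lead a gene or hold at least 5% of it in both libraries of a table, with others of the same gene for completeness; named partners are the 2 most abundant of each list and those 1.5-fold or more apart. Members and lists were chosen with earlier results of these data known.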

Additional observations from a re-analysis of the deposited data

How the results depend on the processing

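Of the 59 alternative values of the main results that use both libraries, 27 stayed within the spread between libraries (for counts, within 1.5 times). Values without 1 library lie within that spread by construction and show nothing about stability. By CPM Grin2b and Grin2a passed Grin1, and by FASTQ-based TPM Grin2a made up 51.8% of the pair in replicate 2. Grin2a made up 48.7% of Grin2a plus Grin2b by FASTQ-based TPM, 33.7% by expected counts (CPM) and 38.0% over protein-coding transcripts. Full-length coding transcripts alone, an alternative chosen after seeing the data, gave 46.0%. Grin1's share of the subunits was 42.0% by FASTQ-based TPM, 18.7% by CPM and 44.9% over full-length transcripts. Grin2a's share was 25.7%, 19.5% and 21.5% by CPM, protein-coding and full-length transcripts. Grin2b's was 25.9% by FASTQ-based TPM and 50.7%, 31.8% and 25.2% by those 3. Grin1 over summed Grin2 was 0.764 by FASTQ-based TPM, 0.237 by CPM and 0.861 over full-length transcripts.

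By FASTQ-based TPM, Grin1-201 held 29.8%, Grin2a-206 48.2%, Grin2b-201 65.3% and Grin2d-201 53.2% of their genes. By estimated counts, Grin2a-206 held 82.9%, Grin2b-201 90.2%, Grin2d-201 67.3% and Grin3a-201 73.7%. By FASTQ-based TPM the shares of N1, C1 and C2 were 21.5%, 61.4% and 60.1%, and N1 was 18.6% over all transcripts that span it. With no filter on low counts 1 member, Grin3b on 5 and 2 counts, was 1.5-fold or more apart, and 16.4% of protein-coding genes were, while deposited TPM gave 2.49% of genes and 0 members. By FASTQ-based TPM 2 partner genes were, Npas4 and the splicing regulator Ptbp2. The tables also corrected for length differently. For long transcripts the length used was shorter than the annotated one by a median of 99 nt by alignment. By the FASTQ-based table it was shorter by 377.5 nt in replicate 1 and 341.1 nt in replicate 2. For Grin2b-206, of 601 nt, the length used was 502 nt by alignment and 234 and 261 nt by the FASTQ-based table. The cause of these shifts was not tested, except that counts weight a transcript by its length.

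Without replicate 1 or 2, Grin2a made up 47.0% and 43.3% of the pair, and 4 and 5 members had a lead of at least 50%. No paired analysis was possible because the samples form 1 group. Depth limits Grin3b and the short transcripts of Grin2b and Grin2d, which rest on few counts.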
